A study of Caenorhabditis elegans with 2 samples.

Results

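In young adult Caenorhabditis elegans carrying a tagged APTF-3, 603 sites combined a high peak signal with absence from the joint list of reproducible peaks. They were taken from a deposited ranked list of 99784 peaks, in which 1437 peaks had a signal of at least 60. Of these, 721 were peaks of the thresholded list and 716 overlapped none of its peaks by even 1 bp. Sites with at least 50% of their bases soft-masked as repeats in the ce11 genome were left out, which removed 113 and left the 603. The sites were therefore chosen by the signal measured in these libraries, and their signal and IDR are given as a description. IDR stands for irreproducible discovery rate, a measure of how poorly the rank of a peak repeats between lists, and the thresholded list held peaks with an IDR of 0.01 or less. The site just inside the signal limit had a signal of 60.0086 and the strongest peak just outside it 59.9981. The most heavily masked site had 48.6% of its bases masked and the least masked of the sites left out had 50.3%.

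The libraries came from 1 group, strain OP765, with 2 biological replicates. The animals carried the integrated transgene wgIs765, a fosmid copy of aptf-3 joined to a TY1, EGFP and 3xFLAG tag, together with an unc-119(+) rescue gene on an unc-119(tm4063) mutant background. They were grown from starved first-stage larvae to young adults of 64 h. Chromatin was sheared to 200 to 800 bp and precipitated with an antibody to GFP, and the deposited files were 8 peak lists. Both replicates came from 1 transgenic line, the protein was made from a transgene rather than from the endogenous locus, and the chromatin was that of whole animals. A stronger peak can therefore mean more cells with the protein bound or more binding in each cell, and these cannot be told apart. The peak lists hold no read numbers, so the depth is unknown. No source used here defines the unit of the signal, and control chromatin was not analysed here.

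AP-2 proteins are transcription factors that bind DNA as dimers, and the vertebrate members recognise a GC-rich palindrome, GCCNNNGGC. Genes for transfer RNAs carry their promoters inside the gene and are read by RNA polymerase III, while small nucleolar RNAs guide the modification of ribosomal RNA and small nuclear RNAs take part in splicing. A promoter here was the stretch from 1000 bp upstream to 200 bp downstream of the 5′ end of an annotated gene.

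The sequences of 6 sites show the kinds of DNA that made up the group. They are given on the plus strand of ce11, with capitals for bases that lie in a 31-base word found more than once in the nuclear genome. The first and the second lie in pot-3, which encodes a protein with a telomere single-strand-binding domain, and hold no repeated word. The third covers the 5′ end of the small nuclear RNA gene Y54G9A.8. The fourth is the strongest of all 603 sites, and the fifth lies in a coding exon of cla-1, which encodes the synaptic active zone protein Clarinet. The sixth covers the arginine tRNA gene C18A11.t2, whose body lies within the capital stretch. The fifth and sixth were chosen after their values were seen.
chrIII:13780189-13780484 (pot-3 promoter): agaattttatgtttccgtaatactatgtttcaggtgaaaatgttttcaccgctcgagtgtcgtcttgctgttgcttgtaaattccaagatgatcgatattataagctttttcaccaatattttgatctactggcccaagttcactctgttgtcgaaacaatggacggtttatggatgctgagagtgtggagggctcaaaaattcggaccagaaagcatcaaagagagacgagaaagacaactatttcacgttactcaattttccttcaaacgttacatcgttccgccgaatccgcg
chrIII:13780658-13780953 (pot-3 coding exon): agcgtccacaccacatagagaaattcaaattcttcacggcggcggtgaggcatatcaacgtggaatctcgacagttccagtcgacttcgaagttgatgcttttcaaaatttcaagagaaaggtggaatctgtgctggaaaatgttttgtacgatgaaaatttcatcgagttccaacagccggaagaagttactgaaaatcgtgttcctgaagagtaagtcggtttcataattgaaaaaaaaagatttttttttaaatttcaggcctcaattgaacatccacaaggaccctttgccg
chrII:13717642-13717937 (Y54G9A.8): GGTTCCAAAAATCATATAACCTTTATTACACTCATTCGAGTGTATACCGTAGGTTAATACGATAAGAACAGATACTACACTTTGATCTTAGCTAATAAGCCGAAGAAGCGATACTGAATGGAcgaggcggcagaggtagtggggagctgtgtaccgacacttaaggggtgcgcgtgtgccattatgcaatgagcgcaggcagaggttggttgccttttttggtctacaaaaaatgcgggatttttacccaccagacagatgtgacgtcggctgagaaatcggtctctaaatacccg
chrIII:8863031-8863326 (intergenic): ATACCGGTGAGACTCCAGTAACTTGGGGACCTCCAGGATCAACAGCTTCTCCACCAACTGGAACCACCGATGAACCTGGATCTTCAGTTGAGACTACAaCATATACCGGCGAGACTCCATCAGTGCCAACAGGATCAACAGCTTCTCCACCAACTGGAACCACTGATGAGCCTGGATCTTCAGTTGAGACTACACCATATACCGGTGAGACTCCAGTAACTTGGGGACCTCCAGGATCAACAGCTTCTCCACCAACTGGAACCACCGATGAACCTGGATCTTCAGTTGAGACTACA
chrIV:7592932-7593227 (cla-1 coding exon): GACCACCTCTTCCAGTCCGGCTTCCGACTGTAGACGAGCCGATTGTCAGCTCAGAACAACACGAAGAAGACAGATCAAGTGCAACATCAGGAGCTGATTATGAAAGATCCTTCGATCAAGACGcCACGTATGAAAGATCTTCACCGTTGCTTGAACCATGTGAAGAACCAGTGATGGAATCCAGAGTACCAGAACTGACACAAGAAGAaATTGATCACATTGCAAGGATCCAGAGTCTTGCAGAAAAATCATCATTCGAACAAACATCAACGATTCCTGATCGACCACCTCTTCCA
chrX:8036577-8036872 (C18A11.t2): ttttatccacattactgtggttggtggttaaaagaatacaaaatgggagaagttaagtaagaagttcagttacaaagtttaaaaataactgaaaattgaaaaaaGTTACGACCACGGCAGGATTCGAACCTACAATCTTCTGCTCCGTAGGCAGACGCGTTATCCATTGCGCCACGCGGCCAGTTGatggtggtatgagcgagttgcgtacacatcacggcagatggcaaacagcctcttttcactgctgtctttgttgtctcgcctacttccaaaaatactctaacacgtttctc

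All 603 sites were 296 bp wide and none overlapped another. Their signal had a median of 63.5 and a range of 60.0086 to 188.3, against a median of 78.2 and a range of 60.1 to 309.0 for the 628 thresholded peaks of the same signal and masking limits. The median IDR of the sites was 0.0204. Of the 603, 500 had an IDR above 0.01 and up to 0.05, 86 had an IDR above 0.05 and 15 of these were above 0.2. A further 17 sites had an IDR of 0.01 or less in the ranked list and were still absent from the thresholded list. In the whole ranked list 0.85% of peaks passed 0.01. Most of the sites thus lay between 0.01 and 0.05. They were spread over the 6 nuclear chromosomes with 95 on I, 103 on II, 100 on III, 78 on IV, 112 on V and 115 on X. The median distance to the nearest thresholded peak was 40528 bp, and 18 sites lay within 500 bp of one, the closest at 170 bp.

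**Figure D1:**
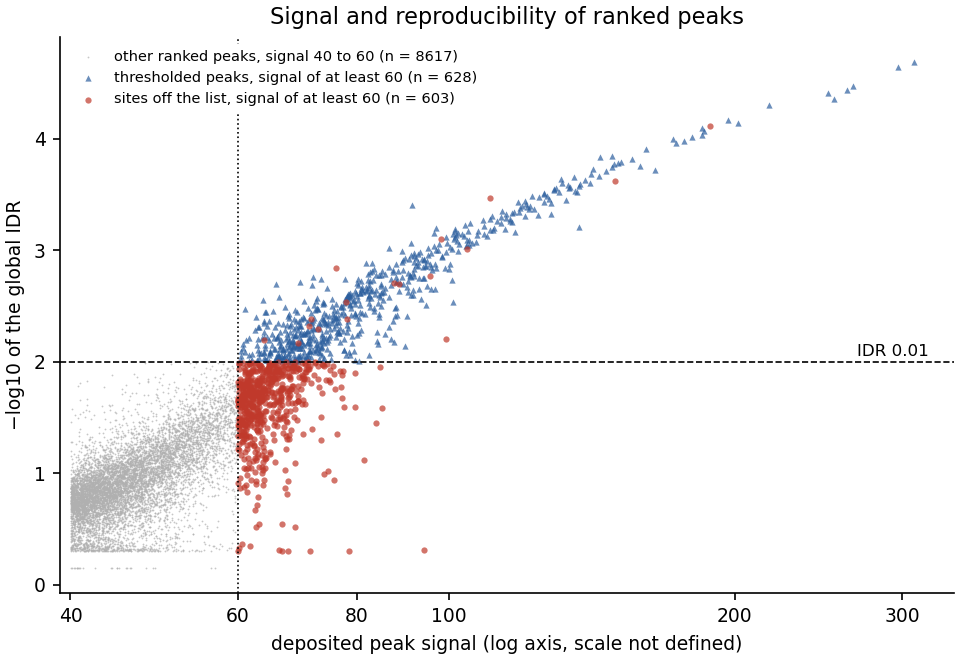
Deposited signal of each ranked peak (log axis) against the −log10 of its global IDR, for the 603 sites off the thresholded list (circles), the 628 thresholded peaks of the same limits (triangles) and weaker ranked peaks (dots). The sites fill the band just under the dashed line at an IDR of 0.01, and 17 of them lie above it.

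A smaller share of the sites than of the thresholded peaks lay in promoters, and a larger share in coding exons. Summits in a promoter of any annotated gene made up 41.8% of the sites (252 of 603, exact 95% interval 37.8 to 45.8), 64.5% of the 628 thresholded peaks (60.6 to 68.2) and 32.3% of all ranked peaks. For promoters of protein-coding genes the share was 23.1% (19.7 to 26.6) against 33.8% (30.1 to 37.6), and since 21.4% of all ranked peaks and 21.5% of the nuclear genome lay there, the share of the sites was near the background. Coding exons outside promoters held 27.9% of the sites (24.3 to 31.6) and 11.6% of the thresholded peaks (9.22 to 14.4). They held 26.8% of all ranked peaks, near the share of the sites, but 17.8% of the nuclear genome. Introns held 14.9% of the sites (12.2 to 18.02) and 8.76% of the thresholded peaks (6.67 to 11.2), against 23.3% of all ranked peaks. Intergenic summits made up 10.4% of the sites and 10.5% of the thresholded peaks, and 13.1% of all ranked peaks. Of the nuclear genome, 34.6% lay in promoters of any gene, 27.0% in introns and 16.3% between genes. Intervals cover counting error over peaks only, and peaks of the same libraries are not independent.

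At genes for small structural RNAs the share of the sites stood between those of the thresholded peaks and of all ranked peaks, with intervals apart from both. Within 100 bp of a tRNA, snoRNA or snRNA gene lay 58 of the 603 summits, or 9.62% (7.38 to 12.3), compared with 0.761% of all ranked peaks and 0.321% of the nuclear genome. The thresholded peaks were there more often still, at 29.9% (26.4 to 33.7). Weaker peaks off the list, with a signal of 50 to 60, were there at 3.47% (77 of 2218). These weaker peaks were in promoters at 38.9%, in coding exons at 31.1% and in introns at 15.0%, all 3 within the intervals of the sites.

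**Figure D2:**
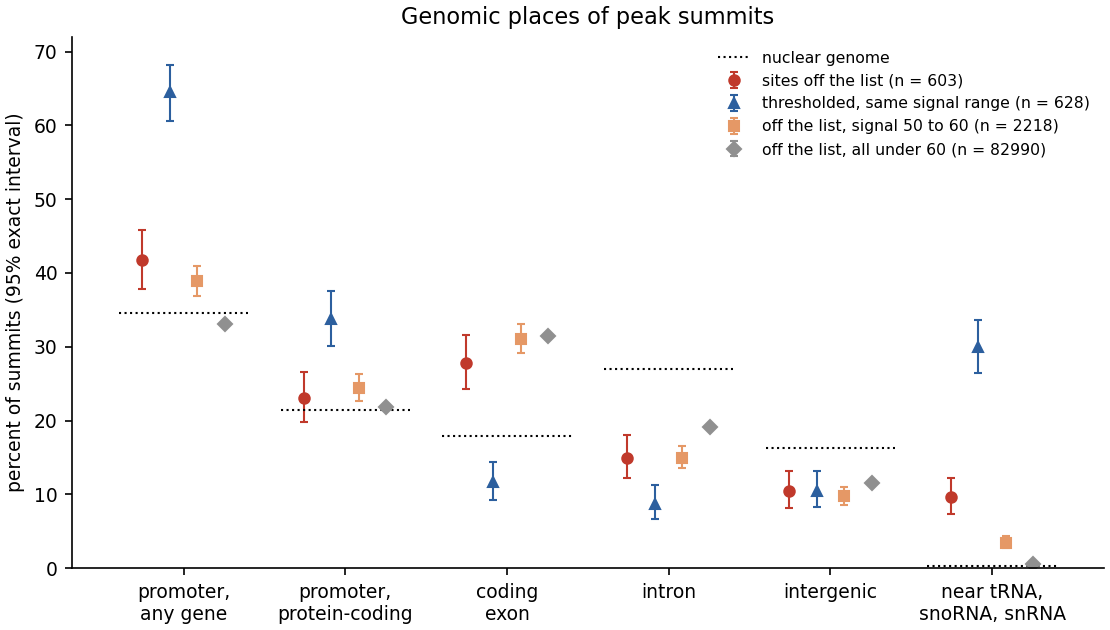
Percent of summits in each genomic place with exact 95% intervals, for the 603 sites off the list (circles), 628 thresholded peaks (triangles), 2218 peaks off the list with a signal of 50 to 60 (squares) and 82990 peaks off the list under 60 (diamonds). Dotted lines give the share of the nuclear genome. The sites sit at 41.8% in promoters against 64.5% for thresholded peaks, and at 27.9% in coding exons against 11.6%.

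Since the thresholded peaks were stronger, the places were also set side by side within bands of signal. Between 62 and 65, coding exons held 23.0% of 187 sites (17.2 to 29.7) and 21.1% of 38 thresholded peaks, whose interval ran from 9.55 to 37.3, so no difference was detectable at these numbers. Between 65 and 70 the values were 32.0% of 147 sites (24.5 to 40.2) and 21.7% of 115 thresholded peaks (14.6 to 30.4). Between 70 and 80 they were 28.1% of 64 (17.6 to 40.8) and 14.7% of 177 (9.83 to 20.8). At 80 or more they were 21.4% of 14 (4.66 to 50.8) and 3.86% of 285 (1.94 to 6.80). This last band has no upper limit, and thresholded peaks in it reached 309.0 against 188.3 for the sites. The share of the thresholded peaks in coding exons was thus lower in the stronger bands than in the weaker ones, that of the sites was between 21.4% and 32.0%, and the intervals of both sets overlapped in each single band.

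Promoter shares within bands of signal were 43.3% of sites and 52.6% of thresholded peaks between 62 and 65, 36.1% and 48.7% between 65 and 70, and 50% and 61.6% between 70 and 80, with intervals that overlapped in each band. At 80 or more they were 35.7% of 14 sites (12.8 to 64.9) and 74.7% of 285 thresholded peaks (69.3 to 79.7), where the intervals did not overlap. That band is open at the top, and several of its 14 sites are repeated sequence, described below. At small structural RNA genes the sites stood at 7.85% between 60 and 62 (4.46 to 12.6), and the 13 thresholded peaks of that band at 38.5% (13.9 to 68.4). Between 62 and 65 the values were 7.49% (4.15 to 12.2) and 26.3% (13.4 to 43.1), so the intervals were apart in both of these bands. They overlapped in the stronger ones, with 11.6% and 14.8% between 65 and 70, 15.6% and 23.2% between 70 and 80, and 14.3% and 40.4% at 80 or more. The thresholded values followed no order with signal.

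**Figure D3:**
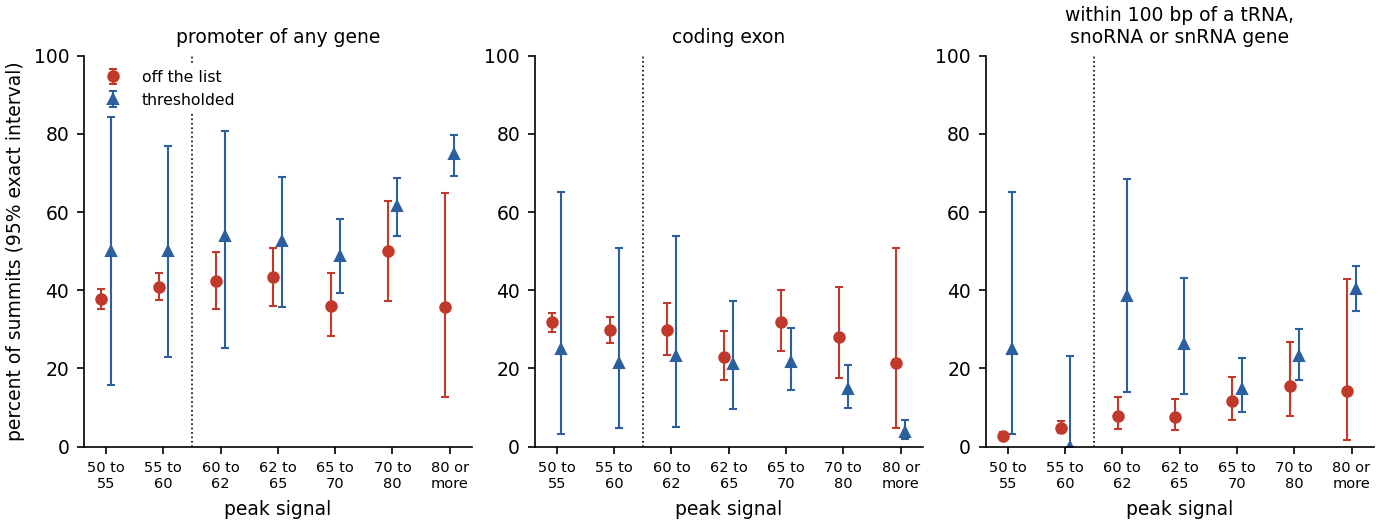
Percent of summits in a promoter of any gene, in a coding exon and near a tRNA, snoRNA or snRNA gene, by band of peak signal, with exact 95% intervals. Circles are peaks off the thresholded list and triangles thresholded peaks, and the dotted line marks a signal of 60. In coding exons the thresholded peaks drop to 3.86% at 80 or more, while the sites are between 21.4% and 32.0% from 60 upwards.

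The tRNA genes were the largest group of small RNA genes among the sites. A summit lay within 100 bp of 48 of 612 annotated tRNA genes (7.84%), against 130 (21.2%) for the thresholded peaks, and 20 of the 48 were among the 276 tRNA genes of chromosome X. The summits were at a median of 32.5 bp inward from the 5′ end, with 16 upstream of it, and those of the thresholded peaks were at 25 bp. By amino acid, 7 of 46 lysine, 6 of 55 glycine, 5 of 39 leucine, 5 of 39 serine and 4 of 14 phenylalanine tRNA genes had a site, and 0 of 34 alanine, 0 of 27 aspartate and 0 of 12 tryptophan genes. Many tRNA genes are near-identical copies, so the gene named at a site is uncertain where reads could map to several.

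The strongest tRNA site was at C18A11.t2 (chrX:8036685-8036757, minus strand), the gene in capitals in the last sequence above. Its joint signal was 76.9, with 32.8 in replicate 1 and 47.1 in replicate 2, and an IDR of 0.0169. The lysine gene F42H10.t1 on chromosome III followed at 73.5, with 38.9 in replicate 1 and no summit of replicate 2 within 100 bp. The glycine gene T22A3.t1 had 73.1, with 27.0 and 43.0 in replicates 1 and 2. At the other end, the serine gene T06H11.t1 had 60.1, with 20.5 and 37.7. The tRNA sites thus covered much of the range below 77 and did not reach the top of the group.

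Small nuclear RNA genes had a summit within 100 bp at 4 of 129, against 22 for the thresholded peaks. The strongest, at Y54G9A.8, had a joint signal of 81.6, with 16.6 in replicate 1 and 66.6 in replicate 2, so that the signal was mostly that of replicate 2. T27E4.11, near the small heat shock gene hsp-16.1, had 76.8 with 40.7 and 35.2. C47F8.9 had 64.9 and R07E5.16 had 61.3. Small nucleolar RNA genes had a summit at 7 of 346, against 48 for the thresholded peaks. They were led by T08B2.13 at 84.7, with 32.5 and 48.9 in the replicates, and the others were between 60.9 and 70.3. The summit of the site at T08B2.13 falls within the neighbouring pseudogene T08B2.t1 on the same strand. That site also lies over the noncoding gene T08B2.14 on the other strand, and the peak lists do not tell the strands apart.

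Among protein-coding genes, 159 of 19973 (0.796%) had a summit of the sites in their promoter, from 139 summits. The 628 thresholded peaks of the same signal and masking limits put a summit in 253 such promoters. All 785 thresholded peaks put one in 298, and 4 genes had both. These were pro-1, a ribosomal RNA processing gene, with 63.1 for the site and 119 for the thresholded peak, R11A5.6 with 70.6 and 75.3, the histone H3 gene his-63 with 63.0 and 69.3, and Y56A3A.22 with 60.5 and 90.4. The sites were chosen not to overlap a thresholded peak, which limits how many genes can have both.

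The gene lists held few of these genes. Counts for the thresholded list given beside them are for all 785 of its peaks, whatever their signal or masking. Of 72 core histone genes 4 had a site in their promoter, as did 5 for the thresholded list, and his-47 (histone H2A) led with 76.2. A site in the promoter windows of both his-59 and his-60 (histones H3 and H4) followed with 70.3, mostly over the body of his-60. The nearest protein-coding 5′ end to the his-47 site was that of his-58. The his-47 and his-60 sites had 63.2% and 59.1% of their bases in repeated words, and the his-63 site above had 22.3%. The histone gene named at a site is therefore uncertain where reads could map to several. Translation factors and tRNA synthetases had 3 of 64, namely eif-3.J with 69.0, eif-2beta with 63.0 and the elongation factor gene eef-2 with 62.9, and the thresholded list had 1. Respiratory chain genes had 2 of 52, with cox-5A, a subunit of cytochrome c oxidase, at 77.2 and nuo-4 of complex I at 61.1, and the thresholded list had 5. The nuclear hormone receptor list had 3 of 273, nhr-120 at 66.8, nhr-91 at 64.8 and nhr-14 at 61.98, all on chromosome X, and the thresholded list had 0. This list was drawn by gene symbol and left out fax-1, also annotated as a nuclear hormone receptor. It lies on chromosome X as well and had a site at 67.7.

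Cytoplasmic ribosomal protein genes had 1 of 82, rpl-17 at 62.1, where the thresholded list had 10, and its peaks of the same signal and masking limits 7. Heat shock genes had 1 of 52, dnj-16 at 71.0, against 5 for the thresholded list. Cuticle collagens had 1 of 173 (dpy-14, 61.7), chemoreceptors 1 of 1310 (sre-1, 66.8), neuropeptides 1 of 140 (nlp-76, 62.4) and the proteasome 0 of 33. The 4 AP-2 family genes aptf-1 to aptf-4 had none in their promoters, and no site lay in a stretch of 40 kb in all around any of them. The nearest site was 38920 bp away for aptf-1, the closest of the 4, and 113405 bp away for aptf-3, the farthest. Thresholded peaks did lie in these stretches, with 0 around aptf-1, 2 around aptf-2, 4 around aptf-3 and 4 around aptf-4. The genes aptf-3 and aptf-4 are neighbours, so their stretches overlap. With 0 to 4 genes per list, these counts are a description beside the 0.796% of all protein-coding genes, and nothing is read as particular to a list.

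The strongest site in a protein-coding promoter was at kin-14. There, at a tyrosine kinase gene on chromosome I, the site at chrI:7079502-7079797 had a signal of 94.1, with 51.9 in replicate 1 and 41.9 in replicate 2. Its IDR was 0.491 in the ranked list used here and 0.00162 in the second joint ranked list. It was a peak of the joint thresholded list labelled conservative. At pot-3 the promoter site had 87.6 and an IDR of 0.00195. A site in the promoter window of Y54G11A.2 had 85.1, with 48.0 and 34.1. Its summit lay 831 bp downstream of the 5′ end of hmg-1.1, a high mobility group gene, and outside the promoter window of that gene. The SNARE gene vamp-7 had 78.6, with 27.1 and 40.5, and an IDR of 0.497. The histone chaperone gene nasp-2 had 77.6, with 30.5 and 45.2.

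Within gene bodies, 168 sites lay in coding exons of 164 genes. These genes were long, with a median of 4250 bp against 2027 bp for all protein-coding genes, and the sites lay at a median of 59.6% of the way from the 5′ to the 3′ end, 2133 bp from the start. A longer gene offers more sequence outside the promoter, and the share expected from length was not tested. Several genes held more than 1 site in their body. The kinase gene mnk-1 on chromosome II held 6, more than any other gene, with signals of 60.2 to 67.5 and IDRs of 0.0101 to 0.467. In replicate 1, 4 of the 6 had a matching summit, at 23.0 to 43.1, and in replicate 2 all 6 had one, at 21.7 to 50.9. The 6 lay in an intron (3), in a coding exon (1) and in the promoter windows of the snoRNA gene R166.7, which lies inside mnk-1, and of its neighbour pro-1 (2).

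Other genes with repeated sites were cla-1 and Y48C3A.5 with 3 each, and 14 genes with 2 each. Among these were lrk-1, the worm LRRK kinase, with 60.3 and 68.8, the yolk protein gene vit-2 with 60.5 and 61.8, the cGMP-dependent kinase gene egl-4 with 60.5 and 65.2, and pck-2, a phosphoenolpyruvate carboxykinase gene, with 61.8 and 70.6. At vit-2 the 2 sites had 67.6% and 26.4% of their bases in repeated words, and vitellogenin genes are near-identical copies in part, so that signal there is uncertain as to the gene. In all, 89 of the 603 sites had another site within 5 kb. Neither this count nor the counts per gene were set beside those of other peaks, so no clustering is read from them.

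In the replicates' own ranked lists, a summit within 100 bp was present in both for 556 of the 603 sites, or 92.2% (89.8 to 94.2). The share was 93.8% for the thresholded peaks and 32% for all ranked peaks, most of which were weaker. Among peaks off the list with a signal of 50 to 60, 1920 of 2218 had both. The sites were chosen by the joint signal of these libraries, so a summit in both is in part implied by the choice. A summit was present in replicate 1 alone at 18 sites and in replicate 2 alone at 29. The median signal was 30.4 in replicate 1 and 33.1 in replicate 2 for the sites, and 39.3 and 42.3 for the thresholded peaks. The log2 ratio of replicate 2 to replicate 1 had a median of 0.11 over the 556 sites with an SD across sites of 0.69, and of 0.12 and 0.59 over 589 thresholded peaks. Replicate 2 was higher at 321 sites and replicate 1 at 235, and the 2 differed by 2-fold or more at 66 sites (11.9%) and 47 thresholded peaks (7.98%). These ratios compare 2 libraries and carry no test.

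Few sites were called in a single replicate. A thresholded peak of replicate 1 overlapped 4 sites and one of replicate 2 overlapped 10, together 14 sites or 2.32% (1.27 to 3.86), where the thresholded peaks reached 37.3% (33.5 to 41.2) and all ranked peaks 0.346%. The site at Y54G9A.8 was one of those called in replicate 2. The widest gaps between replicates were at an intergenic site, chrII:6508115-6508410, with 3.1 in replicate 1 and 73.2 in replicate 2, and at an intronic site near T28F4.5, with 3.40 and 44.4.

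**Figure D4:**
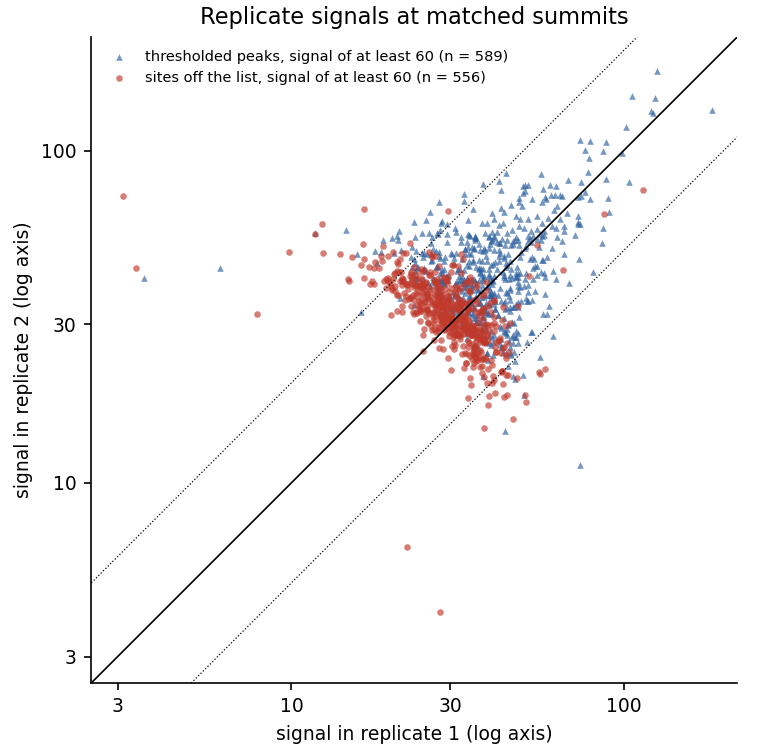
Signal in replicate 1 against replicate 2 (log axes) at sites (circles, n = 556) and thresholded peaks (triangles, n = 589) with a ranked summit of both within 100 bp. The solid line marks equal signal and the dotted lines a 2-fold difference, which 66 sites and 47 thresholded peaks reach. The sites lie across the diagonal. They were chosen by their joint signal, so no relation between replicates is read from their slope.

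Besides the lists used so far, there was a joint thresholded list labelled conservative and a second joint ranked list that does not carry that name. The second ranked list held 598 of the 603, and 98 of these had an IDR of 0.01 or less there. Of the 98, 10 passed in both ranked lists and 88 in the second one only. Of the 88, 87 were peaks of the conservative thresholded list. The overlap with that list was thus 87 of 603, or 14.4% (11.7 to 17.5), against 73.1% (69.4 to 76.5) of the thresholded peaks and 0.73% of all ranked peaks. By signal it was 2.62% of sites and 7.69% of thresholded peaks between 60 and 62, 9.09% and 15.8% between 62 and 65, 21.1% and 42.6% between 65 and 70, and 48.4% and 73.4% between 70 and 80. At 80 or more it was 3 of 14 sites (21.4%) and 95.8% of the thresholded peaks. None of the 17 sites that passed 0.01 in the ranked list used here was a peak of either joint thresholded list.

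Most of those 17 sites were repeated sequence. At least 50% of the bases lay in repeated 31-base words in 15 of the 17 (88.2%, interval 63.6 to 98.5), against 40 of the other 586 sites (6.83%, 4.92 to 9.18), 91 of 628 thresholded peaks (14.5%, 11.8 to 17.5) and 9.52% of all ranked peaks. In 14 of the 15 most other copies of the words lay within 20 kb on the same chromosome, which held for 8 of the 40 and 14 of the 91. Each site was also matched to the sequence downstream of its start, at the shift of 5 to 2000 bp that matched best. The 17 agreed at a median of 94.9% of bases, and 13 of the 17 agreed at more than 60%, as tandem arrays do. With the best shift likewise taken for each, the median was 35.5% for the other sites. Some best shifts were longer than the 296 bp of a site, so the match was not always within the site. The limit on soft-masked bases does not remove such arrays, and 10 of the 17 lay in coding exons, 5 between genes and 0 within 100 bp of a small structural RNA gene.

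**Figure D5:**
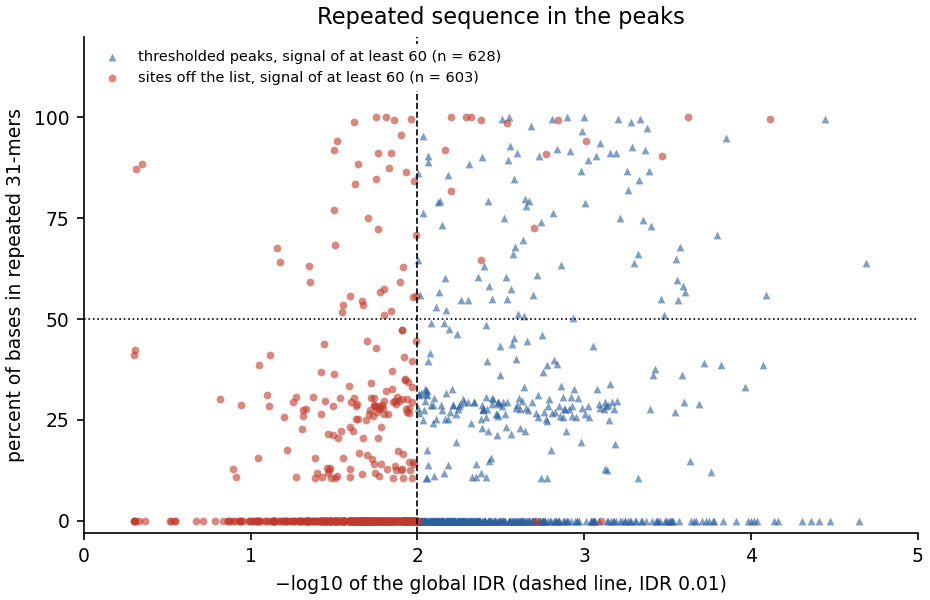
Percent of bases in 31-base words found more than once in the nuclear genome against the −log10 of the global IDR, for the 603 sites (circles) and 628 thresholded peaks (triangles). Right of the dashed line at an IDR of 0.01, 15 of 17 sites lie above 50%, and left of it 40 of 586.

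The strongest site of all, the fourth sequence above, had a signal of 188.3 and an IDR of 7.70e-05, with 114.6 in replicate 1 and 75.9 in replicate 2. It matches the sequence 198 bp downstream at 98.6% of bases. Another site nearby, chrIII:8863660-8863955, had 104.6, with 94.3% of its bases in repeated words and a best match of 54.1%. The nearest protein-coding 5′ end to the strongest site, 10918 bp away, was that of plg-1, which encodes a mucin-like protein of the mating plug. The next site, chrIV:12318945-12319240, had 149.6, with 87.3 and 64.2. Another intergenic site, chrX:7077621-7077916, had 110.4, with 65.5 and 43.7.

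In cla-1, 3 coding-exon sites passed 0.01, with joint signals of 78.1, 71.6 and 69.4. The strongest had 45.5 in replicate 1 and 30.2 in replicate 2, and the weakest 36.7 and 32.6. Between 64.5% and 99.3% of their bases were in repeated words. ZC247.1 and ZC178.2 held 2 such sites each, at 95.5 and 63.9 and at 88.7 and 71.3, and the stronger of each pair had a summit of replicate 1 only. The site chrV:17126783-17127078, near a gene annotated as the spliced leader RNA gene sls-1.1, had 78.1 with 58.1 and 21.9. Genes for the spliced leader are near-identical copies, so the copy is uncertain.

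The 2 sites of pot-3 were the exceptions without any repeated word, and the only ones of the 603 within 5 kb of a chromosome end. They had joint signals of 87.6 and 98.1, with 68.6 and 42.9 in replicate 2, and no ranked summit of replicate 1 within 100 bp. No source used here says what kept the 17 off the thresholded list, and the part of repeated sequence in their signal was not tested.

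The AP-2 consensus GCCNNNGGC, which reads the same on both strands, was found within 100 bp of 20 summits, or 3.32% (2.04 to 5.08). The share was 4.3% (2.85 to 6.19) for the thresholded peaks and 1.56% for all ranked peaks. In windows of the same size centred 500 bp to either side of the sites it was 0.995% and 1.82%, with intervals that overlap that of the summits. With 2 to 4 bases allowed between the arms, the motif was at 11.9% of the sites (9.46 to 14.8), 11.5% of the thresholded peaks and 5.2% of peaks under 60, and in the flanks of the sites at 3.48% and 3.81%. The mean GC content within 100 bp of the summit was 47.0% for the sites and 47.1% for the thresholded peaks but 40.8% for peaks under 60, and the part of base composition in the motif shares was not tested.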

How the data were processed

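The 2 replicates of 1 group were analysed by chromatin immunoprecipitation and sequencing, each deposited as a ranked and a thresholded peak list, with 2 joint ranked and 2 joint thresholded lists. The authors' deposited signal per peak and −log10 of the global IDR were used as given. The authors' thresholded lists were made with 1 additional file, per the deposited notes, and its content, the aligner and the peak caller were not given in the sources used here. Left unused were 16 columns of the joint ranked lists and 16 of the replicates' ranked lists with values per input, since no label ties the inputs to samples. The assembly is ce11, per the labels, and genes are those of Ensembl release 115. The depth is unknown.

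A summit took the first class that applied among promoter, 5′ UTR, coding exon, 3′ UTR, noncoding exon or intron, and intergenic. A replicate's summit within 100 bp counted as matched. Repeated sequence was measured as 31-base words on both strands of the nuclear chromosomes. Shares carry exact Clopper-Pearson 95% intervals, which cover counting error only, and no test was made. Alternatives changed the signal and masking limits, windows, distances and replicates. Genes named were those at the 25 strongest sites, the 3 strongest per gene class or list and the AP-2 genes, and other loci (genes with several sites, sites with an IDR of 0.01 or less, genes in both lists) were added after their values were seen. The members and lists were chosen with earlier results of these data known. Product names are from RefSeq. The code was tested on simulated data and run in Python 3.11.15 with numpy 2.4.6, pandas 2.3.3, scipy 1.17.1 and matplotlib 3.10.9.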

Additional observations from a re-analysis of the deposited data

How the results depend on the processing

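Of the recomputed values, 94 stayed within the interval of the reported value (for the number of sites, within 1.5 times) and 31 moved. A signal limit of 50 or 80 gave 2821 or 14 sites. At 50, small RNA genes had 4.79%, both replicates 87.8% and single-replicate lists 0.674%. At 80, promoters had 35.7%, small RNA genes 14.3%, coding exons 21.4%, introns 7.14%, intergenic sequence 35.7%, both replicates 71.4%, single-replicate lists 7.14% and the consensus 0%, all from 14 sites. Under 25% soft-masked bases, promoters of any and of protein-coding genes had 37.5% and 19.6%. With no limit on masking, coding exons had 23.7% and intergenic sequence 17.9%. A promoter of 500 bp upstream to 100 bp downstream gave 28.5% and 13.6% in promoters, 32.5% in coding exons and 14.4% intergenic, and one of 2000 bp to 500 bp gave 61.2%, 40.3%, 18.1%, 10.1% in introns and 7.30% intergenic. Matching within 50 or 200 bp gave 68.3% or 97.0% in both replicates. The consensus was at 1.49% within 50 bp and at 11.9% with 2 to 4 bases between the arms. The joint signal that chose the sites comes from both replicates and could not be recomputed without one. Asking instead only for a ranked summit of the remaining replicate within 100 bp kept 574 to 585 sites, with 40.6% to 41.5% in promoters and 0.697% to 1.71% in single-replicate lists. Leaving out the 17 sites past 0.01, or those with at least 50% repeated bases, both chosen after seeing the data, moved no share out of its interval. No paired analysis was possible because there was only 1 group. The cause of these moves beyond the settings themselves was not tested. Unknown depth and 2 replicates limit all values.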

Other observations

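Over all 46890 annotated genes, 397 (0.847%) had a site in the promoter window and 813 (1.73%) a summit of any of the 785 thresholded peaks. Unclassified noncoding RNA genes were above that share, with 128 of 7764 (1.65%) for the sites and 221 (2.85%) for the thresholded list, and one site can count for several overlapping genes. Of 15363 piRNA genes 19 had a site (0.124%) and 28 a thresholded summit, and of 2128 pseudogenes 8 (0.376%) and 23, both below the share of all genes. Of 261 microRNA genes 2 had a site (0.766%), cel-mir-1830 with a signal of 72.4 and cel-mir-2 with 61.7, and 7 a thresholded summit. Ribosomal RNA genes had 0 of 20 in either list. Among the 25 strongest sites, 3 more lay in coding exons with an IDR above 0.01. One in the chloride channel gene clh-1 had 79.6, with 31.6 in replicate 1 and 44.8 in replicate 2. One in puf-11, which encodes a Pumilio-family RNA-binding protein, had 77.2, with 31.4 and 38.4. One in F19F10.11, next to the ETS factor gene ets-6, had 77.5, with 21.7 and 49.0.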
